A study of Caenorhabditis elegans with 2 samples.

Results

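The gene ins-39 of Caenorhabditis elegans encodes an insulin-like peptide and was chosen by the signal of the NHR-102 peak in its promoter, one of the strongest in the series. It is 1 of 19985 protein-coding genes of the annotation, and the other 37 genes with an ins name are set beside it. The signal and rank of its peak are therefore given as a description and not tested. Insulin-like peptides are secreted ligands of DAF-2, the worm's only receptor of the insulin and IGF-1 type. DAF-2 acts through a phosphoinositide kinase cascade on the FOXO factor DAF-16, and the family is known for its part in larval arrest, metabolism and lifespan, with some peptides activating and others opposing the receptor. NHR-102 is a nuclear hormone receptor, a class of transcription factors that often respond to small lipophilic ligands.

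The assay was ChIP-seq, in which DNA bound by a protein is precipitated and sequenced, on whole hermaphrodite worms of strain OP463. Their genotype is unc-119(tm4063) III; wgIs463, and the transgenic line carries NHR-102 with a GFP-FLAG tag at its C-terminus. The sample descriptions give an antibody against GFP, although the antibody field names nhr-102, and the promoter that drives the transgene is not given in the labels. L4 larvae were taken 50 h after synchronization by starvation at L1, as 2 biological replicates that form the only group. Whole animals were used, so the cells behind a peak are unknown, and without untagged worms to compare, binding by NHR-102 and other sources of signal cannot be told apart at any peak.

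The locus lies on chromosome X at positions 1343758 to 1344421 of WBcel235, the same sequence as ce11, on the minus strand (WBGene00017668, 2 exons, 664 bp). Downstream, the next gene is ttr-37, a transthyretin-related gene, 6582 bp away. Upstream, 6131 bp separate ins-39 from the pseudogene F21E9.6, and the next protein-coding gene, F56C3.3, is 13349 bp away. The strong peak stood in this upstream gap at chrX:1344714-1345438, outside any annotated gene, and its summit lay 629 bp upstream of the ins-39 5′ end, which was also the nearest protein-coding 5′ end. The 300 bases around the summit (chrX:1344900-1345199, plus strand, WBcel235) are shown because they hold the sequence feature that this peak shares with other strong peaks of X. Capitals mark the letters GCGCAGG, whose first base was 6 bp from the summit.

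ins-39 summit: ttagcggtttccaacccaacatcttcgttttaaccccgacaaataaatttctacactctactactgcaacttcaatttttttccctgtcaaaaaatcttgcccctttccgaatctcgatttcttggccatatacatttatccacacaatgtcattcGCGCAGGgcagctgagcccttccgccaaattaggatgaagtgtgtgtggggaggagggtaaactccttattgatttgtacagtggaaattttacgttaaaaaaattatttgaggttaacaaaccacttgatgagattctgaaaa

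The peak was among the strongest of each list. In the optimal list, the 2796 peaks that passed the authors' test of reproducibility, its signal was 1362 and its rank 29, so that 98.96% of the peaks were lower. In the list of replicate 1 the signal was 743 and the rank 29 of 30000, and in that of replicate 2 the signal was 627 and the rank 30. The pooled list of 30000 entries gives this peak the same signal and rank as the optimal list, so the 2 are not separate measurements. The authors label the pooled list as peaks and background. Like the replicate lists, it precedes the test of reproducibility, so a weak entry in these lists need not be a reproducible peak. The summit moved by at most 1 bp between the lists. Signals are the authors' own values and can be compared only within a list. This peak stood at 9.53 times the median of the optimal list. Against the longer replicate lists, which reach down to weak entries, the ratios were 38.9 in replicate 1 and 33.8 in replicate 2.

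A weaker second summit shared the peak interval, at an offset of -840 bp from the 5′ end and 211 bp from the main one. Its signal was 102 in the optimal list, rank 2332, which put it below the list's median of 143. The replicates differed here: it had a signal of 113 and rank 719 in replicate 1, against 26.5 and rank 8268 in replicate 2. Its summit was placed 8 bp nearer the gene in both replicate lists than in the optimal list. The ratio of the ranks, 11.5, was exceeded by 24 of the 2737 optimal summits found in both replicate lists, whose median ratio was 1.47, while the main summit had a ratio of 1.03. The stronger summit was thus 6.59 times the weaker one in replicate 1 and 23.6 times in replicate 2. Of 2717 distinct intervals in the optimal list, 72 held 2 or more summits.

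**Figure D1:**
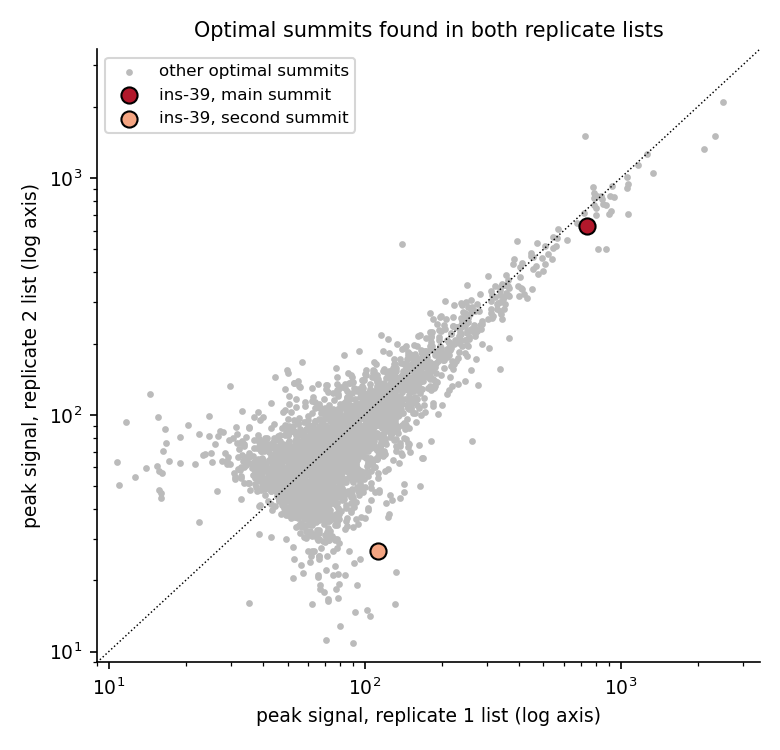
Peak signal in the replicate 1 list (x axis) against the replicate 2 list (y axis), both on log axes without units, for the 2737 optimal summits found in both, with the dotted line at equal values. The main ins-39 summit lies near the line at 743 and 627, and the second summit far below it at 113 and 26.5.

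Within 10 kb of the gene, the optimal list held 4 summits, and the 2 not yet described lay on the downstream side. One was at the start of ttr-37, 14 bp downstream of its 5′ end in the 5′ untranslated region (chrX:1336939-1337382), with a signal of 180 and rank 970. The other was intergenic, at an offset of -1964 bp from the same 5′ end (chrX:1338917-1339360), with a signal of 127 and rank 1694. The fuller lists had 9 summits each in the pooled and replicate 1 lists and 11 in that of replicate 2. No summit of any list was found on the upstream side beyond the second ins-39 summit, up to the edge at 10 kb. Inside the gene, replicate 2 alone had a weak summit in an exon, at the end of the coding sequence (signal 13.5, rank 22386).

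**Figure D2:**
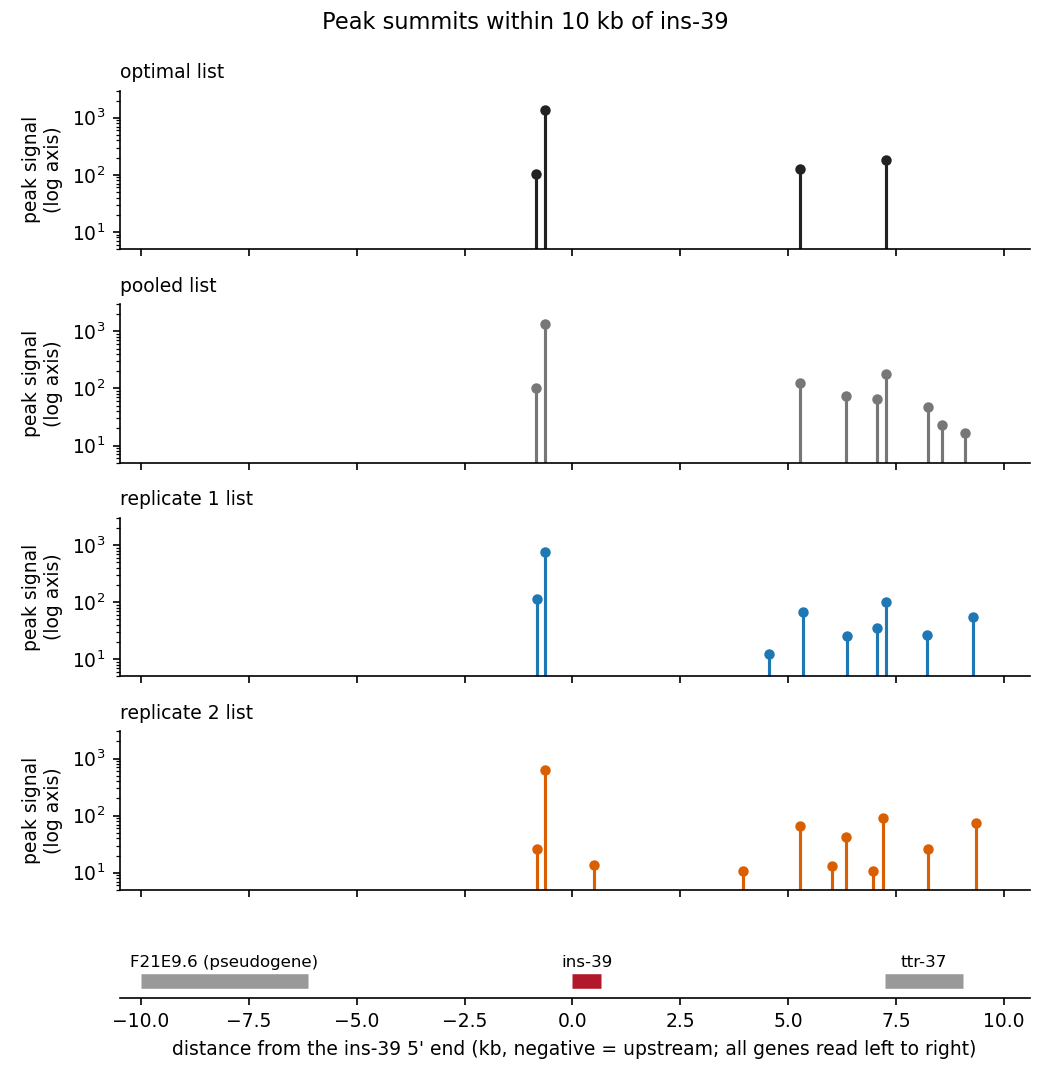
Summits within 10 kb of ins-39 in each of the 4 lists, by distance from its 5′ end in kb (x axis, negative values upstream) and peak signal (y axis, log scale, no units), with genes drawn as bars in the lowest panel and the pseudogene bar ending at the plot's edge. The main summit, at -629 bp or 1 bp from it, is the highest in each list, and the summits beyond the ins-39 peak lie on the side of ttr-37.

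Compared with most other peaks, that of ins-39 was strong and wide, and among promoter summits alone it lay far upstream. Only 13 of the 1526 promoter summits were higher, where a promoter is the stretch that begins 1000 bp before the 5′ end of an annotated transcript and stops 200 bp after it. A shorter stretch, from 500 bp before to 100 bp after, does not reach the ins-39 summit, and under it the gene had no promoter peak. Of the 247 promoter summits on X, 1 was higher, that of nspc-17 with a signal of 2006. The peak, which holds both ins-39 summits, was 725 bp wide against a median of 444 bp, and 97.0% of summits lay in narrower peaks. This width was not particular to ins-39, as the peaks just above and below it in signal were about as wide or wider. The autosomal peaks most similar in replicate ranks, given below, were narrower. Its offset of -629 bp compared with a median of -197 bp for promoter summits, 13.0% of which lay farther upstream. Base composition was ordinary, with 43.3% GC in the 201 bp around the summit against a median of 41.3%, and 12.9% of those bases were soft-masked as repeats in the reference, against a median of 19.4%.

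The peaks next to it in signal were of several kinds. Just above stood X peaks outside promoters, nearest to F19H6.5 (signal 1475) and fbxb-58 (1428), and just below stood a mitochondrial peak interval with summits on either side of the 5′ end of COX1 (1360 and 1299). Among the 1499 other promoter peaks matched in both replicates, the 6 with the most similar ranks in the replicate lists, by distance on a log10 scale, ranked between 22 and 39. They were those of the mitochondrial gene ND1, of rpl-35, of the pairs K01G5.10 with tasp-1 and drr-2 with set-16, and of rpl-15 and rpl-20, each in a window shared with a further gene. The genes rpl-35, rpl-15 and rpl-20 encode proteins of the large ribosomal subunit. None of these 6 peaks was on X, but only promoter peaks were compared. Of the 15 X summits with a higher signal, 14 lay outside promoters and could not be among them.

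No other ins gene had a promoter summit in the optimal list, 0 of 37 (exact 95% interval 0 to 9.49%), against 8.95% of all protein-coding genes and 9.12% of those on X. This interval holds the background share, so the absence of peaks in the optimal list is not a result about the family. In the pooled list 7 of the 37 had one (18.9%, exact 95% interval 7.96 to 35.2%; background 34.3%), as had 7 in the replicate 1 list (background 36.4%) and 7 in the replicate 2 list (background 35.7%). The interval for 7 of 37 holds the pooled background and ends just below those of the replicate lists. A summit in at least 1 list was found for 8 (21.6%, exact 95% interval 9.83 to 38.2%), below the background of 43.9%. Several ins genes are neighbours in clusters, so the genes are not independent and the intervals are a description. All of the pooled summits were weak beside that of ins-39. The highest was ins-37, with a signal of 66.0 and rank 4534 at a summit 15 bp upstream of its 5′ end, and its replicate signals were 37.3 and 24.6. It was followed by ins-12 (signal 59.5, rank 5376), ins-11 (53.6, rank 6379), ins-7, a peptide known to activate DAF-2 (53.1, rank 6469), ins-10 (34.8, rank 12632), ins-13 (31.9, rank 14326) and ins-36 (16.9, rank 28250). The pooled signal of ins-39 was 1362, far above each of these.

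A promoter summit in both replicate lists and the pooled list was found for 6 of the 37 genes, a share of 16.2% against 27.3% of all protein-coding genes. The exact interval for this share, 6.19 to 32.0%, holds the background. The replicates put the family's summits in different orders, and not always at the same place. At ins-12 the signal was 41.3 (rank 4177) in replicate 1 and 10.7 (rank 28087) in replicate 2, while ins-10 had none in replicate 1 and 30.4 (rank 6526) in replicate 2. The gene ins-7 was closer, with 27.1 and 25.6. At ins-13 the highest signals were 18.5 and 17.9, but at offsets of -105 bp in replicate 1 and -668 bp in replicate 2, so they are not the same summit. The same held for ins-36 (10.9 at 102 bp and 12.4 at -728 bp). At ins-11 the signals were 48.3 at -993 bp and 30.3 at -860 bp. These offsets are closer, and whether they mark the same summit was not tested. The gene ins-35 had a summit in replicate 1 alone (signal 19.98, rank 14046). The order within the family below ins-39 is therefore not resolved by these lists. The windows of ins-7 and ins-36 shared their summits with ZK1251.3 and Y53H1A.7.

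The other 29 genes had no promoter summit in any list. They were ins-18, ins-24 to ins-30 and ins-33 on chromosome I, ins-2 to ins-6, ins-14, ins-15, ins-19, ins-20, ins-31 and ins-32 on II, ins-16, ins-17 and ins-21 to ins-23 on III, ins-1, ins-8 and ins-34 on IV, and ins-9 on X. The peptides INS-1 and INS-18 are known to oppose DAF-2 signalling, and INS-4 and INS-6 to activate it. The gene daf-28, an insulin-like peptide without an ins name and a DAF-2 activator, likewise had none. The gene ins-9, the only other member on X, had its nearest optimal summit 27750 bp away. An optimal summit within 10 kb was found for 9 of the 37 genes (24.3%, exact interval 11.8 to 41.2%), against 40.0% of all protein-coding genes. There were 4 genes with 2 or more (10.81%, exact interval 3.03 to 25.4%, background 18.2%). Each interval holds its background, so these shares do not show that the family has fewer summits nearby. The strongest of the summits within 10 kb stood near ins-17 (signal 786, 1251 bp from the gene) and within 10 kb of ins-13 (611). The nearest were weaker, at 215 bp from ins-13 (97.6), 309 bp from ins-12 (107) and 559 bp from ins-37 (329). All of these lay outside the promoter windows of the ins genes.

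**Figure D3:**
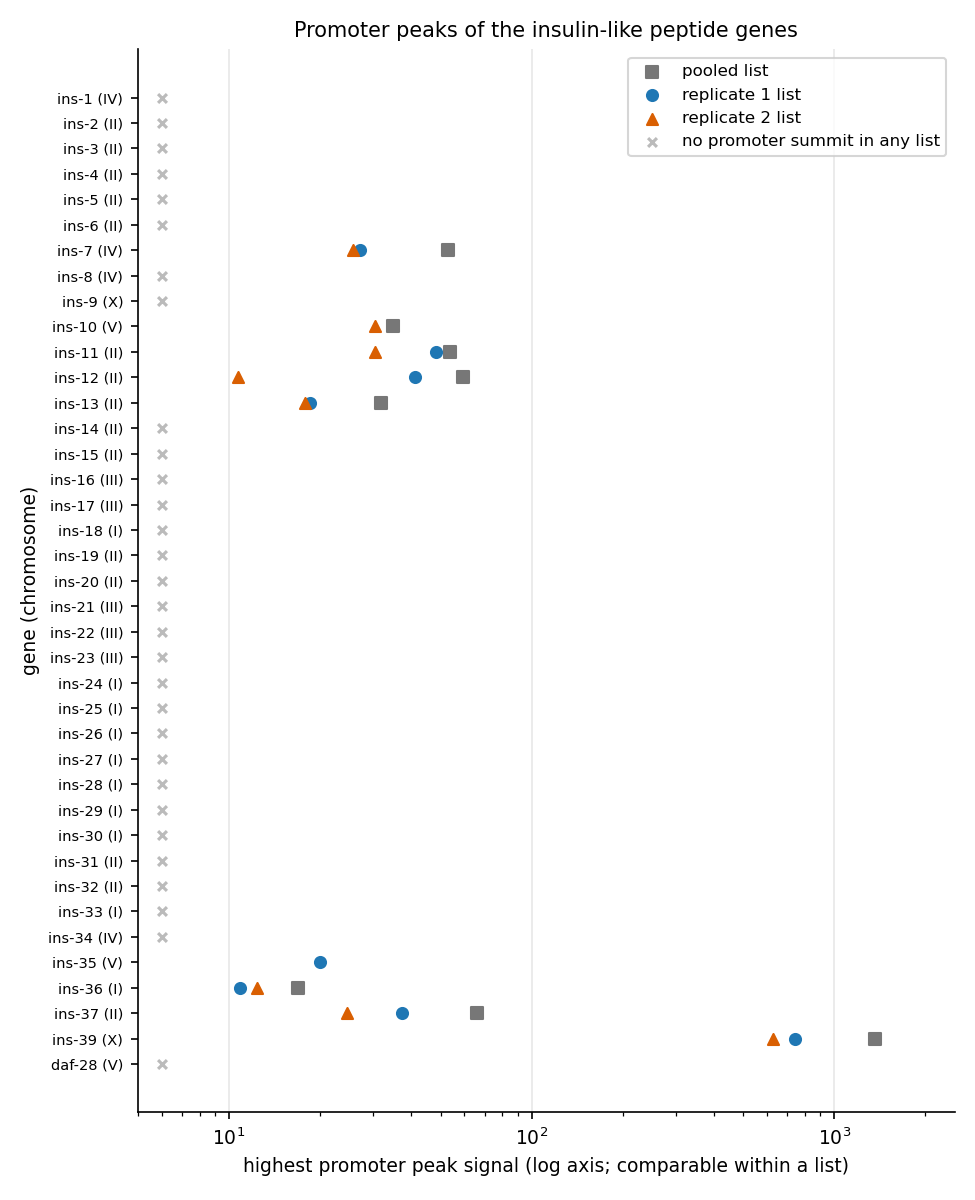
Highest promoter peak signal (x axis, log scale, no units) of each insulin-like peptide gene (y axis, chromosome in brackets) in the pooled, replicate 1 and replicate 2 lists, with grey crosses for genes that have no promoter summit in any list. The ins-39 values of 1362, 743 and 627 stand apart from those of the other genes, which reach at most 66.0, 48.3 and 30.4.

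Of the 16 genes of the insulin pathway list, which holds the ligand gene daf-28 beside the receptor and its effectors, 5 had a promoter summit in the optimal list (31.3%, exact 95% interval 11.0 to 58.7%; background 8.95%). The interval lies above the background, but the list was chosen with earlier results of these data known, so the share is a description. A gene with several annotated 5′ ends also has several windows, and the background was not matched for this. Of the 5, 2 genes, ftt-2 and par-5, encode 14-3-3 proteins, which bind DAF-16 and many other partners. The strongest was ftt-2 on X, with summits at offsets of -509 bp and -710 bp (signals 592 and 389; replicate signals 313 and 279 for the first, 220 and 132 for the second). Both ftt-2 summits lay in exons of other annotated genes, F52D10.7 and F52D10.9, and that of par-5 (signal 114; window shared with M117.3) in exons of M117.11 and M117.12. The remaining 3 were weak: pptr-1, a phosphatase subunit that counters AKT-1 (110), the kinase gene akt-2 (107), and skn-1, a stress-response factor held back by the pathway (96.2 and 93.4). Both skn-1 summits lay in introns of skn-1 itself, the first also within clec-178. They counted through 5′ ends inside the gene, at offsets of -988 bp and -576 bp. With the shorter promoter stretch 2 of the 16 were left, par-5 and pptr-1, and among peaks above the list's median signal 1 was left, ftt-2. For these settings no background was computed. In the pooled list 11 of the 16 had a promoter summit (68.8%, exact 95% interval 41.3 to 89.0%, background 34.3%). There were again 11 in replicate 1 (background 36.4%) and 12 in replicate 2 (75%, background 35.7%).

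The receptor gene daf-2, the kinase genes age-1, pdk-1, akt-1 and sgk-1 and the FOXO gene daf-16 had no optimal promoter summit. In the pooled list, daf-2 reached a signal of 24.8 and daf-16 72.1, and the phosphoinositide kinase gene age-1 had none. The kinase gene pdk-1, 15771 bp downstream of ins-39 on the same chromosome and named here after its values were seen, had no promoter summit in any of the lists. Both pdk-1 and daf-16 did gain an optimal summit when the promoter began 2000 bp before the 5′ end, and when each summit went to its nearest 5′ end. Of 10 genes for peptide processing and release, 1 had an optimal promoter summit (10%, exact 95% interval 0.253 to 44.5%), which is near the background of 8.95%. In the pooled list 7 of the 10 had one (70%, exact 95% interval 34.8 to 93.3%), and the interval begins just above the background of 34.3%. In replicate 1 there were again 7, with the same interval and a background of 36.4%. In replicate 2 there were 6 (60%, interval 26.2 to 87.8%, background 35.7%). Both replicate intervals hold their backgrounds. The optimal one was unc-31, which is needed for release from dense-core vesicles (signal 136; replicate signals 76.0 and 60.8), and the summit also lay in the small gene ZK897.4. The convertase gene egl-3, which cleaves propeptides, reached 53.3 in the pooled list.

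The last comparison concerned the sequence under the ins-39 summit. In hermaphrodites, which have a pair of X chromosomes, a dosage compensation complex lowers transcription from X, and it is known to load at recruitment sites that carry a motif with the letters GCGCAGG. Whether that complex occupied the ins-39 site was not measured here. Of 7 motifs searched on both strands, the ins-39 peak held this one (reverse complement CCTGCGC) at 1 position, centred 9 bp from the summit, and runs of TTTTTTT, the nearest centred 72 bp away. The nuclear receptor half-site AGGTCA, the GATA core TGATAA, the DAF-16 site GTAAACA, the E-box CACGTG and the repeat GAGAGA were not in the interval. Within 100 bp of the summit, AGGTCA was held by 5.68% of X peaks and 5.66% of autosomal peaks, and by 5.91% of windows of the same length ending at autosomal 5′ ends.

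The 7 letters of the recruitment motif were common at the strongest X peaks and rare elsewhere. They lay within 100 bp of the summit in 14 of the 30 strongest X summits (46.7%, exact 95% interval 28.3 to 65.7%), in 12 of the other 551 (2.18%, 1.13 to 3.77%), and in 0 of the 30 strongest autosomal summits (exact upper limit 11.6%). Of all autosomal summits 1.37% held them, and of the windows of 201 bp ending at a 5′ end 0.476% on X and 0.394% on autosomes. Among the 16 X summits at or above the ins-39 summit in signal, 11 held them, and below it the next X summit had a signal of 977, so that ins-39 was the last of this group before a step of 1.39 times. The ins-39 peak and that of nspc-17 were the 2 promoter peaks among the 14. Peaks with the motif had a median signal of 649 over all 26 on X, against 143 for the 555 without it. The sites are not independent of earlier results, since strong X peaks with these letters were known when the motif was chosen.

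The 14 sites are shown in the orientation of the motif, with 12 bases on either side, in order of signal, so that the ins-39 site can be read against them. Capitals mark GCGCAGG, and where a peak held several copies the one nearest the summit is given. Each is named by the gene of its promoter or, outside promoters, by the nearest protein-coding 5′ end. All are from X of WBcel235.

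W02H3.3: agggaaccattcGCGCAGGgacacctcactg
cest-16: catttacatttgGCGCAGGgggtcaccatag
nspc-17: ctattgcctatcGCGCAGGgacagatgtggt
T27A8.7: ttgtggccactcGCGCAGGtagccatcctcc
gtr-1: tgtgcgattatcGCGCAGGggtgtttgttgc
C41A3.2: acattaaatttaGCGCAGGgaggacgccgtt
F20B6.9: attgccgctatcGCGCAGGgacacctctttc
F22H10.2: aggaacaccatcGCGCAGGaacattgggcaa
xol-1: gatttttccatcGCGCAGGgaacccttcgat
Y41G9A.17: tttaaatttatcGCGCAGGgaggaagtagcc
ins-39: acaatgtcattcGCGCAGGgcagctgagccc
T24D8.6: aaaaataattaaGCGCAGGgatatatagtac
hlh-29: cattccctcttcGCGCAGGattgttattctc
col-185: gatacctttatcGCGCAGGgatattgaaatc

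At ins-39 the flanks extend the match to TCGCGCAGGG, and 8 of the 14 sites shown, ins-39 included, have the same 10 letters. When any copy within 100 bp of the summit counts, 10 of the 14 peaks held them. This longer string was read from the ins-39 site after its sequence was seen, so its counts are a description. On X it occurred 19 times (1.07 per Mb) and on the autosomes 6 times (0.0727 per Mb), whereas the shorter core was as frequent on X (20.1 per Mb) as on the autosomes (19.9 per Mb). An optimal summit lay within 100 bp of 13 of the 19 X copies, with a median signal of 1593 and a range of 286 to 2297 over the copies, some of which share a peak, and of 0 of the 6 autosomal copies. For the core the shares were 8.68% on X and 1.83% on the autosomes. In the family, the core was present in the promoter windows of 2 of the other 37 ins genes, ins-26 and ins-33, both on chromosome I and both without a summit in any list, which is near the share of all promoter windows that held it, 3.04% on the autosomes and 3.33% on X. The 10 letters were in none of the 37.

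**Figure D4:**
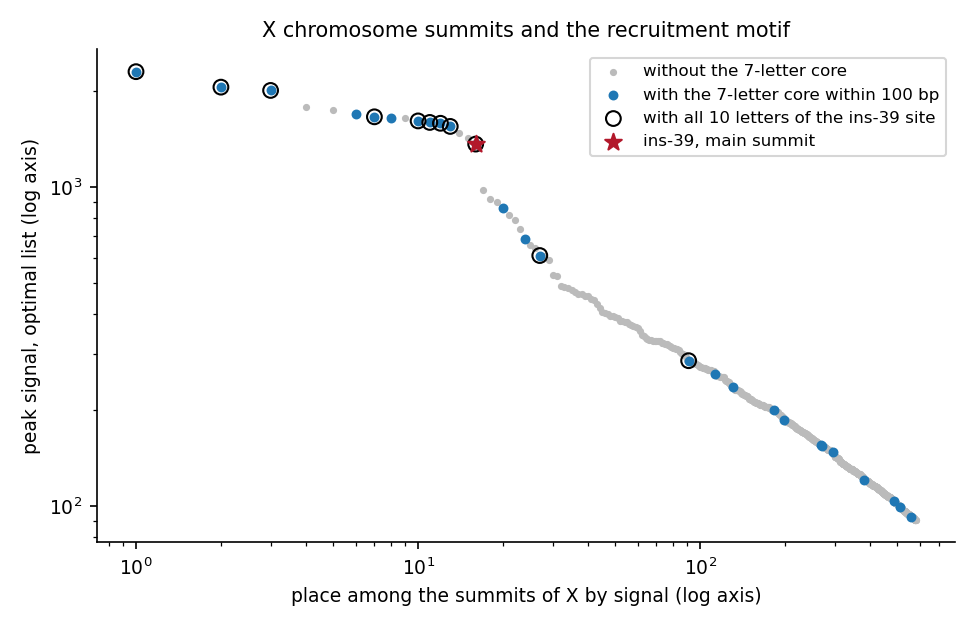
The 581 optimal summits of X by place in signal (x axis, log scale) and peak signal (y axis, log scale, no units), with those that hold the 7-letter core within 100 bp in blue, those with all 10 letters circled, and ins-39 as a star. The star stands at place 16 with a signal of 1362, at the foot of the group of strong peaks in which 11 of 16 hold the core.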

How the data were processed

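The peak lists used, all in build ce11, were the optimal list, the pooled list, labelled by the authors as peaks and background, and 1 list for each replicate. Per the notes deposited with each sample, the authors made lists from the alignments of each replicate and of both together, each with the same further file, taken here to be the control, and derived the optimal list from those 3 lists with the irreproducible discovery rate. For the aligner and the caller, no name is given in the sources used here. The deposited signal of each peak is the authors' value. The deposited −log10 q was not used, nor were the lists in ce10. No read numbers are given, so the depth is unknown, and exact binomial intervals (Clopper-Pearson, 95%) cover counting error only.

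Summits were placed from 1 as start plus offset and assigned to every protein-coding gene of Ensembl release 115 whose promoter window held them. Mitochondrial genes carry RefSeq symbols by position. Sequences are from the RefSeq copy of WBcel235, within which the last peak of each chromosome ended in every list. Motifs were searched in the whole ins-39 peak and within 100 bp of all summits with Python 3.11.15. The assignment was checked on simulated summits. No p-value was computed. The gene, the family, the lists, the motifs and the rule for named genes were chosen with earlier results of these data known. The rule took ins-39, its neighbours within 10 kb, the ins genes by their summits, list members with an optimal promoter summit, the 6 promoter peaks most alike in replicate ranks and the 2 peaks on either side in signal. The genes daf-2, daf-16, age-1, pdk-1 and egl-3 were named outside it, after their values were seen. The alternatives were other windows, assignment to the nearest 5′ end, peak overlap in place of summits, the peaks above the list's median signal, other distances, and single lists cut to 2796 peaks.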

Additional observations from a re-analysis of the deposited data

How the results depend on the processing

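Since ins-39 was chosen for its strong promoter peak, its first place in the family is a description and no independent result. The place was first under each alternative that gave the gene a promoter peak, 7 in all, several of which reuse the same signal. With a promoter from 500 bp before to 100 bp after the 5′ end ins-39 had none, because its summit lies at -629 bp. The share of peaks with a lower signal was 98.96% in the optimal list, 97.9% among its peaks above the median signal, and 98.93 to 98.96% without either replicate. The 4 summits within 10 kb became 2 above the median and ranged from 4 to 5 without either replicate. The count of other ins genes with a promoter summit, 0 in the optimal list, became 1 with a window of 2000 bp upstream (ins-11), 1 by peak overlap (ins-11) and 2 by nearest 5′ end (ins-12 and ins-13), and stayed at 0 without either replicate. The 5 insulin pathway genes became 2 in the shorter window and 1 above the median, but 7 with the promoter from 2000 bp and 6 by nearest 5′ end. Both of the latter added daf-16 and pdk-1, while par-5 was lost by nearest 5′ end. The 5 genes became 4 without either replicate, with akt-2 lost without replicate 1 and pptr-1 without replicate 2. The 1 gene of peptide release became 2 by nearest 5′ end, with ida-1 added, and 0 above the median. The share of all protein-coding genes was not computed under these alternatives, so the changed counts cannot be set against a background. The peaks above the median are fewer by construction, and for the remaining shifts the cause was not tested. No paired analysis was possible because the samples form 1 group.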

Other observations

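The 10 letters of the ins-39 site also stood in the promoter windows of 3 other X genes. One was nspc-17, whose peak is strong. The copy at daf-12, a nuclear hormone receptor gene that controls the larval arrest stage called dauer, lay at an offset of -184 bp from a 5′ end and had a pooled summit with a signal of 30.5 (rank 15228) and none in either replicate list. The copy at svh-5, at an offset of -904 bp, had no summit in any list. Peak strength at ins-39 and at these copies thus differed although the 10 letters were the same.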
